A study of Homo sapiens with 14 samples.

Results

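The transcripts of 8 human enzymes of 2-oxoglutarate, glutamate and 2-hydroxyglutarate metabolism were followed in PC3 and HCT116 cells kept in normoxia or hypoxia. The genes were chosen by symbol (GLUL, GLUD1, IDH1, IDH2, D2HGDH, MDH1, MDH2 and OGDH) out of the 23106 genes of the count tables, for the reactions they catalyse. All 8 passed the filter on low counts in every comparison. PC3 is an established prostate carcinoma line, grown here in DMEM/Ham's F12 medium, and HCT116 is an established colorectal carcinoma line, grown in McCoy's 5a. Both media held 10% serum and 2 mM added L-glutamine. PolyA RNA was sequenced from PC3 cells in normoxia (21% O2, 4 libraries) or hypoxia (0.5% O2 for 16 hours, 4 libraries) and from HCT116 cells in the same conditions (3 and 3 libraries). By the methods of the study the replicates are biological ones.

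2-Oxoglutarate stands where the tricarboxylic acid (TCA) cycle meets glutamine metabolism, and it is the co-substrate of the oxygen-dependent dioxygenases that demethylate histones and hydroxylate the hypoxia-inducible factors (HIF). 2-Hydroxyglutarate, its reduced form, competes with it at those enzymes. The L form is made by side reactions of lactate and malate dehydrogenases when oxygen is low, and the D form can arise from isocitrate dehydrogenases and is oxidised back to 2-oxoglutarate by D2HGDH. A transcript level is not an enzyme activity, and neither metabolite was measured in these libraries.

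GLUL and IDH2 were the members that passed the test for a rise in hypoxic HCT116 cells, GLUL not under every alternative. The 250 bases before their start sites are therefore shown, with the core letters of the HIF response element in capitals. Sequences are from GRCh37, 5′ to 3′ on the gene's strand, and end at the base before the start of the canonical Ensembl transcript. GLUL lies on the minus strand of chromosome 1 and the window is chr1:182360926-182361175. IDH2 lies on the minus strand of chromosome 15 and the window is chr15:90645701-90645950.
GLUL: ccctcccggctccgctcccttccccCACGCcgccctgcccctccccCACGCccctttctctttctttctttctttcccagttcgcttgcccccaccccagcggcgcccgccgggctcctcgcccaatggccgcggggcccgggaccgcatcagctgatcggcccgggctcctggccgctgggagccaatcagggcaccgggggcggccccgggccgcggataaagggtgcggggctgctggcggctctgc
IDH2: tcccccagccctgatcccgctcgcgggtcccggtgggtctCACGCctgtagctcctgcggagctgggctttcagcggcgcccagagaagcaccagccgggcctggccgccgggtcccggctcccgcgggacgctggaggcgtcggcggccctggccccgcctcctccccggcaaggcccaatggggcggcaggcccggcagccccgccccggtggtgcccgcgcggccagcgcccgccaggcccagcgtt
The letters searched were ACGTG and GCGTG on both strands, so that a match on the other strand reads CACGT or CACGC. GLUL held 2 matches, IDH1 3, and GLUD1, IDH2 and OGDH 1 each, while D2HGDH, MDH1 and MDH2 held none in this window. Of 19894 promoters of this length 51.4% held at least 1 match, so 5 of 8 members with a match is a description and marks no site.

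Library totals ran from 71228454 to 150630928 counts. Hypoxic PC3 libraries (71228454 to 96159803) were all shallower than normoxic ones (98021966 to 123935458), whereas the HCT116 ranges overlapped (133067391 to 150630928 in hypoxia and 136931675 to 147934177 in normoxia). The least counted member value was 987 counts, for D2HGDH, and every other member held at least 2859 counts in every library. The 5 hypoxia control genes (CA9, NDRG1, VEGFA, PDK1 and ANKRD37) rose in both lines. CDX2, an intestinal transcription factor, was counted at 16.2 to 20.9 counts-per-million (CPM) in HCT116 and at 0 in PC3, and HOXB13, a prostate transcription factor, at 61.8 to 92.7 CPM in PC3 and 9.59 to 10.96 in HCT116. Other defining markers were absent or nearly so in their own line, with KLK3 at 0 counts and FOLH1 at 0 to 2 in PC3, and VIL1 at 0 to 8 and CDH17 at 0 to 3 in HCT116. CEACAM5 and TMPRSS2 were present in PC3 only, at 9.21 to 40.1 and 16.1 to 50.5 CPM, against at most 2 counts in HCT116. Of the markers of other cell types CD68 was at 34.9 to 52.3 CPM in PC3 and 7.81 to 14.3 in HCT116. COL1A1 was at 5.95 to 11.32 CPM in PC3 and 8.428 to 12.45 in HCT116. PECAM1 was at 1.685 to 2.899 CPM and PTPRC at 0.1781 to 0.7939 CPM in PC3. In HCT116 PECAM1 held at most 5 counts and PTPRC 0. DCN and ALB never exceeded 4 counts. Some of these markers moved with oxygen. CD68 was higher in hypoxia by 0.71 in HCT116 (adjusted p 0.000267) and 0.35 in PC3 (0.0294), and the epithelial marker CDH1 by 0.80 (5.59e-05) and 0.34 (0.0206). KRT8 was higher by 0.37 in HCT116 (adjusted p 0.00158) and TMPRSS2 by 0.86 in PC3 (0.0335). The 4 epithelial markers summed to 3135 to 3265 CPM in normoxia and 3607 to 3970 CPM in hypoxia in HCT116, and to 2818 to 3296 and 3196 to 3631 CPM in PC3. The summed markers of other cell types were at 44.2 to 49.5 and 51.1 to 60.6 CPM in PC3 and at 17.3 to 20.3 and 22.4 to 23.1 CPM in HCT116. The part of these markers in the results was not tested.

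Levels are given as CPM after TMM scaling, in the order of the replicate numbers. The plot of levels by library shows the 8 enzymes with these values.

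**Figure D1:**
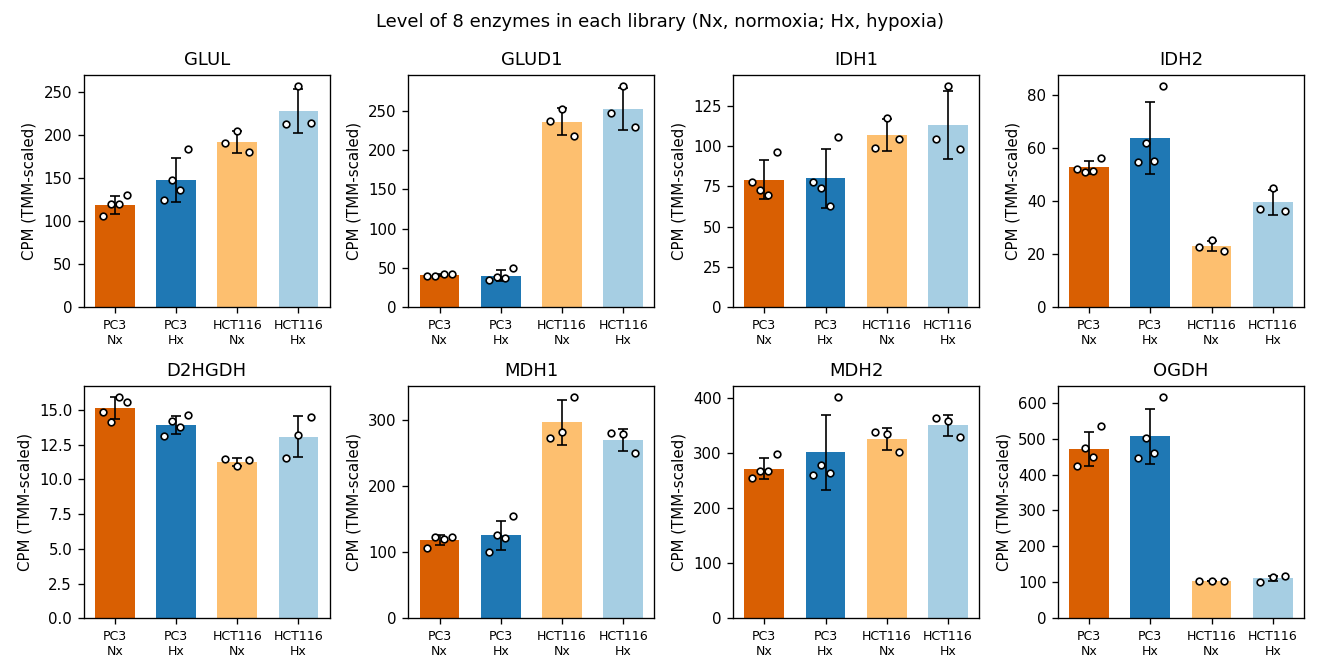
Level of each of the 8 enzymes (CPM after TMM scaling) in each library of PC3 and HCT116 cells in normoxia (Nx) and hypoxia (Hx). Bars are group means, whiskers 1 SD over 4 PC3 or 3 HCT116 libraries and circles single libraries in order of replicate number. OGDH and GLUD1 differed most between the lines, and IDH2 in HCT116 showed the clearest separation of hypoxia from normoxia.

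GLUL encodes glutamine synthetase, which makes glutamine from glutamate and ammonia, and occupies chr1:182347233-182361341. In PC3 it was counted at 106, 119, 120 and 131 CPM in normoxia and at 124, 148, 136 and 184 CPM in hypoxia. Each hypoxic library stood above the normoxic library of the same number, although the ranges overlapped. In HCT116 it was at 191, 205 and 180 CPM in normoxia and 213, 257 and 214 CPM in hypoxia. There every hypoxic library stood above every normoxic one, with means of 228 ± 25.2 and 192 ± 12.3 CPM (SD, n = 3).

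GLUD1 encodes mitochondrial glutamate dehydrogenase, which interconverts glutamate and 2-oxoglutarate, and lies at chr10:88809959-88854600. PC3 libraries held 39.9, 39.9, 42.4 and 42.3 CPM in normoxia and 35.1, 38.2, 37.1 and 50.1 CPM in hypoxia. The hypoxic libraries straddled the normoxic ones, with replicates 1, 2 and 3 below all of them and replicate 4 above. HCT116 held 237, 252 and 218 CPM in normoxia and 246, 281 and 229 CPM in hypoxia, and these ranges overlapped too. GLUD1 partly overlaps FAM35A on the other strand (832 to 10897 counts), and its retrocopy GLUD2 and the pseudogene GLUD1P3 held 19 to 96 and 63 to 481 counts. The study's methods give the intersection-strict mode of HTSeq for the counting, but its strand setting is not given in the sources used here. Reads of near-identical or overlapping genes may therefore be left uncounted or counted for the wrong gene.

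IDH1 and IDH2 encode the NADP-dependent isocitrate dehydrogenases of the cytosol and of mitochondria, which convert isocitrate to 2-oxoglutarate and back. IDH1 (chr2:209100953-209130798) was at 77.7, 72.8, 69.6 and 96.5 CPM in normoxic PC3 cells and at 77.9, 74.1, 62.7 and 106 CPM in hypoxic ones. HCT116 held 98.5, 118 and 105 CPM in normoxia and 104, 137 and 98.0 CPM in hypoxia. The conditions overlapped in both lines. IDH2 (chr15:90626277-90645709) was at 52.3, 51.2, 51.5 and 56.3 CPM in normoxic PC3 cells and 54.8, 62.2, 55.4 and 83.5 CPM in hypoxic ones. In HCT116 it was at 22.7, 25.4 and 21.4 CPM in normoxia and 37.3, 45.1 and 36.3 CPM in hypoxia. In PC3 the ranges overlapped, with hypoxic replicate 4 far above the rest, and in HCT116 the lowest hypoxic library was well above the highest normoxic one.

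D2HGDH encodes the mitochondrial D-2-hydroxyglutarate dehydrogenase and was the least counted member (chr2:242674017-242708231). PC3 held 14.9, 14.1, 16.0 and 15.6 CPM in normoxia and 13.1, 14.2, 13.8 and 14.7 CPM in hypoxia, with overlap. HCT116 held 11.49, 10.94 and 11.40 CPM in normoxia and 11.52, 13.23 and 14.47 CPM in hypoxia. The HCT116 groups did not overlap, but the lowest hypoxic library barely exceeded the highest normoxic one.

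MDH1 and MDH2, the cytosolic and mitochondrial malate dehydrogenases of the malate-aspartate shuttle, can also reduce 2-oxoglutarate to L-2-hydroxyglutarate at a low rate. MDH1 (chr2:63815743-63834331) was at 107, 123, 120 and 123 CPM in normoxic and 101, 126, 122 and 154 CPM in hypoxic PC3 cells. HCT116 cells held 273, 282 and 336 CPM in normoxia and 280, 279 and 250 CPM in hypoxia. Neither line separated the conditions. MDH2 (chr7:75677369-75696826) was at 253, 268, 266 and 298 CPM in normoxic and 259, 279, 264 and 402 CPM in hypoxic PC3 cells. The HCT116 levels were 338, 334 and 301 CPM in normoxia and 363, 358 and 328 CPM in hypoxia. Again the groups overlapped in both lines, and hypoxic PC3 replicate 4 held the highest MDH2 value of all 14 libraries.

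OGDH encodes the dehydrogenase subunit of the 2-oxoglutarate dehydrogenase complex, the TCA cycle step that consumes 2-oxoglutarate (chr7:44646171-44748665). It was at 425, 473, 449 and 535 CPM in normoxic and 445, 502, 460 and 617 CPM in hypoxic PC3 cells. In HCT116 it was at 104, 103 and 104 CPM in normoxia and 102, 113 and 117 CPM in hypoxia. The conditions overlapped in each line, while every PC3 library held more than 3 times the OGDH of any HCT116 library.

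The first comparison asked whether hypoxia moved these transcripts within a line. In PC3 none of the 8 members passed the edgeR quasi-likelihood test at an adjusted p of 0.05, where 11.3% of all 14309 genes tested did. GLUL had an unadjusted p of 0.0217, the only member under 0.05, and the share of all genes under 0.05 is not given here. DESeq2 called 0 members, where it called 2601 of all genes. The GLUL difference was 0.32 on the log2 scale (SE 0.12), a ratio of 1.25, with an adjusted p of 0.111. These tests did not pair the libraries. In an alternative fit the PC3 libraries were taken as pairs by replicate number because same-numbered ones deviated together. The study's methods state no pairing. With replicate number as a block GLUL passed the test (log2 0.31, SE 0.06, adjusted p 0.0134). It was the single member called in that fit, in which 28.5% of all genes were called.

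IDH2 differed by 0.28 (SE 0.13, adjusted p 0.183). It was higher in 4 of 4 same-numbered PC3 pairs, as were GLUL and OGDH. The share of all genes higher in 4 of 4 pairs was not counted. MDH2 differed by 0.15, OGDH by 0.11, MDH1 by 0.09, IDH1 by 0.02, GLUD1 by -0.03 and D2HGDH by -0.11, with adjusted p from 0.33 to 0.942. The median of the 8 was 0.10, against 0.00233 over all genes. Hypoxic replicate 4, the shallowest library, was the highest of all 8 PC3 libraries for 7 of the 8 members, D2HGDH excepted. The share of all genes highest in that library was not counted, so this is not read as particular to the members. Without hypoxic replicate 4 the log2 differences were 0.20 for GLUL, 0.13 for IDH2, 0.0061 for OGDH and -0.0116 for MDH2, and still none of the 8 was called. Depth moved with oxygen in PC3, and its part in these values was not tested. The signs of IDH1 and MDH1 also turned without hypoxic replicate 4 or with scaling to total counts. That of GLUD1 turned without hypoxic replicate 1 or 3.

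In HCT116 2 of the 8 members rose, IDH2 and GLUL, and none fell, against 25.9% of 14120 genes called in either direction and 14.6% called higher. IDH2 rose 1.73-fold, a log2 change of 0.79 (SE 0.09, adjusted p 0.000173). It passed the test under every alternative run, with changes from 0.69 to 0.85 when single libraries were left out. GLUL rose 1.20-fold, a log2 change of 0.27 (SE 0.08, adjusted p 0.0382). That call was lost without normoxic replicate 1 (adjusted p 0.0952), hypoxic replicate 2 (0.138) or normoxic replicate 3 (0.0794), with scaling to total counts (0.142) and in a single fit over all 14 libraries (0.232).

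D2HGDH differed by 0.23 in HCT116 (SE 0.09) with an adjusted p of 0.0749, and without hypoxic replicate 1 the difference was 0.31 with an adjusted p of 0.0255. The other members differed by 0.13 (MDH2), 0.12 (GLUD1), 0.11 (OGDH), 0.10 (IDH1) and -0.12 (MDH1), with adjusted p from 0.213 to 0.559. The median of the 8 was 0.12, against 0.00178 over all genes. Of the 8, 3 had an unadjusted p under 0.05 and DESeq2 called 2. The share of all genes is not given beside either count, so neither is read as a result about the members. The sign of IDH1 turned without hypoxic replicate 2 (-0.0603).

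**Figure D2:**
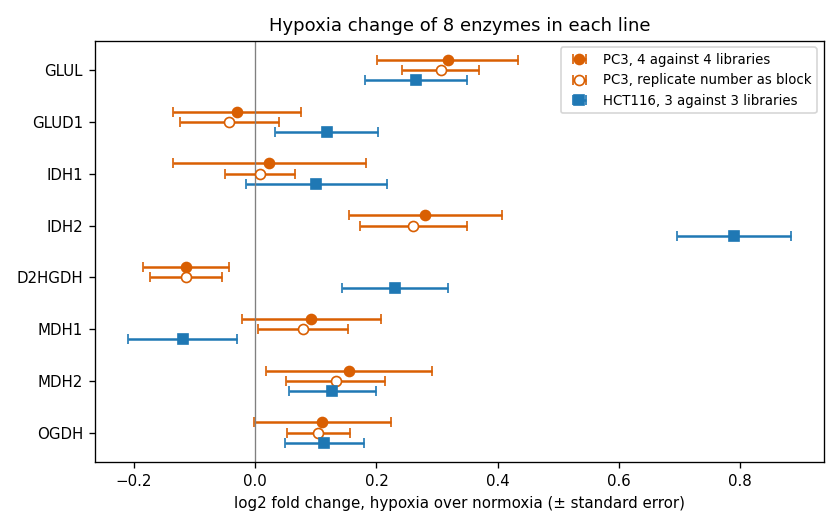
Hypoxia over normoxia for the 8 enzymes as log2 fold change (horizontal axis) from edgeR, with whiskers of 1 standard error, in PC3 without (filled circles) and with (open circles) replicate number as a block, and in HCT116 (squares). IDH2 in HCT116 stood at 0.79 and GLUL at about the same place in both lines (0.32 and 0.27). D2HGDH, MDH1 and GLUD1 lay on opposite sides of 0 in the lines, and none of them was called in either line.

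The change in hypoxia was next compared between the lines. None of the 8 members differed by the interaction of line and oxygen, of which 2.32% of 15493 genes passed the test. DESeq2 called 0 members, where it called 974 of all genes. An unadjusted p under 0.05 was held by 2 members, and the share of all genes under it is not given here. The change of IDH2 in PC3 minus that in HCT116 was -0.50 on the log2 scale (SE 0.18, adjusted p 0.181). With replicate number as a block within each line the IDH2 difference was -0.51 with an adjusted p of 0.021, the only member called where 8.44% of genes were. That block also used the HCT116 numbers, which did not pair their libraries (r = 0.0921, 0.388 and -0.0593). Without hypoxic PC3 replicate 4, and without the block, the IDH2 difference was -0.66 with an adjusted p of 0.00794. D2HGDH differed by -0.33 (SE 0.12, adjusted p 0.175, and 0.0927 with the block). GLUL, the member called in PC3 with the block and in HCT116, differed by 0.06 (SE 0.17, adjusted p 0.916).

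The ratio of isozymes within a library does not depend on how libraries are scaled, and its change does not depend on transcript length. The ratio of IDH1 to IDH2 per base of canonical transcript was 4.97, 5.31 and 5.61 in normoxic HCT116 cells and 3.21, 3.49 and 3.09 in hypoxic ones. These values did not overlap, and the mean log2 ratio fell by 0.70, with SDs of 0.09 in each group. In PC3 the ratio was 1.70, 1.63, 1.55 and 1.97 in normoxia and 1.63, 1.37, 1.30 and 1.45 in hypoxia, a log2 difference of -0.25 with overlap and an SD up to 0.15. No test was run on these ratios.

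The ratio of GLUL to GLUD1 did not overlap between the conditions in either line, and no test was run on it. How often ratios of other genes separate the conditions was not counted. It was 1.16, 1.31, 1.24 and 1.35 in normoxic PC3 cells and 1.55, 1.69, 1.60 and 1.60 in hypoxic ones, a log2 difference of 0.35. In HCT116 it was 0.353, 0.355 and 0.361 in normoxia and 0.378, 0.399 and 0.407 in hypoxia, a log2 difference of 0.15. Hypoxic PC3 replicate 4 fell among its group here, although it was the highest PC3 library for both genes. The ratio of MDH1 to MDH2 was 1.35, 1.42 and 1.86 in normoxic and 1.29, 1.31 and 1.28 in hypoxic HCT116 cells, and it overlapped in PC3 (0.689 to 0.772 and 0.643 to 0.772). The HCT116 conditions did not overlap, but their difference of -0.24 was no larger than the normoxic SD of 0.25 and fell to -0.0989 without 1 library.

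**Figure D3:**
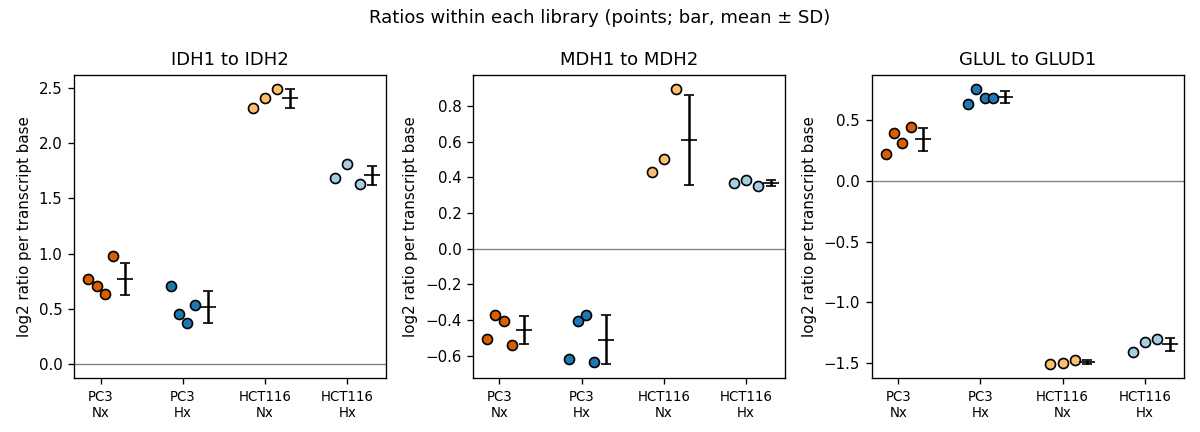
Log2 ratio of IDH1 to IDH2, MDH1 to MDH2 and GLUL to GLUD1, per base of canonical transcript, within each library of PC3 and HCT116 in normoxia (Nx) and hypoxia (Hx). Points are libraries and the bars beside them mean ± SD (n = 4 or 3). IDH1 to IDH2 in HCT116, MDH1 to MDH2 in HCT116 and GLUL to GLUD1 in both lines do not overlap between conditions.

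Between PC3 and HCT116 in normoxia all 8 members passed the test, 3 higher and 5 lower in PC3, but 83.4% of the 15206 genes tested did so too, 42.9% higher and 40.5% lower. Line, culture medium and any handling by line cannot be told apart. OGDH was higher in PC3 by 2.17 on the log2 scale (SE 0.08, adjusted p 8.91e-09), a ratio of 4.50. IDH2 was higher by 1.17 (SE 0.07, adjusted p 2.45e-07) and D2HGDH by 0.41 (SE 0.07, adjusted p 0.00045).

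GLUD1 was lower in PC3 by a log2 difference of -2.53 (SE 0.06, adjusted p 8.19e-10), to 0.173 of its HCT116 level. MDH1 differed by -1.34 (SE 0.08, adjusted p 2.6e-07), GLUL by -0.70 (SE 0.07, adjusted p 1.06e-05) and IDH1 by -0.45 (SE 0.11, adjusted p 0.00382). MDH2 differed by -0.27 (SE 0.07, adjusted p 0.00454), a call lost with scaling to total counts (adjusted p 0.0659) and in a single fit over all libraries (0.0795). The normoxic groups did not overlap for any of the 8 members, but the share of all genes without overlap was not counted. The gap was narrow for MDH2 (at most 298.2 CPM in PC3, at least 301.4 in HCT116) and IDH1 (96.51 and 98.54). In bulk RNA, less RNA per cell and fewer expressing cells cannot be told apart.

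Compared per base of canonical transcript and scaled to a common library total, the order of the members differed between the lines. In normoxic PC3 cells it ran MDH2 (336 ± 22.2), OGDH (302 ± 29.2), MDH1 (245 ± 14.5), IDH1 (91.8 ± 13.98), IDH2 (53.4 ± 2.40), GLUL (42.4 ± 3.36), GLUD1 (33.5 ± 0.947) and D2HGDH (15.9 ± 0.797), as mean ± SD over 4 libraries. MDH2 and OGDH were neighbours whose ranges overlapped. In normoxic HCT116 cells it ran MDH1 (492 ± 28.6), MDH2 (323 ± 36.5), GLUD1 (154 ± 18.4), IDH1 (99.5 ± 11.2), GLUL (54.9 ± 5.99), OGDH (53.2 ± 2.56), IDH2 (18.8 ± 2.43) and D2HGDH (9.47 ± 0.498), over 3 libraries. GLUL and OGDH did not differ there beyond their spread. The order in hypoxia was that of normoxia in each line. With the union of all annotated exons as length, a choice made after the data were seen, several neighbours traded places, among them MDH2 and OGDH and IDH1 and IDH2 in PC3, and MDH1 and MDH2 in HCT116, so levels of different genes are only roughly comparable.

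The neighbours of the members on the chromosome were also compared between the lines, a step chosen after the values were seen. Over all genes tested between the lines 40.5% were called lower and 42.9% higher in PC3. Of 16 genes examined within 1 Mb of GLUD1, 13 were lower and 1 higher in PC3, with a median of -1.65 against 0.03 over all genes. They include the BMP receptor gene BMPR1A (15.7 CPM in PC3 and 51.7 in HCT116 normoxia), ATAD1 (39.6 and 106 CPM) and MINPP1 (14.3 and 42.1 CPM). Others were hardly counted in normoxic PC3 cells. MMRN2, SNCG, FAM25A, FAM22A, FAM22D and KLLN, all lower there, were at 0.0548 to 0.566 CPM. LDB3, the 1 higher, was at 0.569 CPM. FAM35A, also lower, overlaps GLUD1 itself. Around OGDH 25 of 31 tested genes were higher and 1 lower in PC3, with a median of 1.24. Around the other members the counts were mixed, with 13 higher and 13 lower of 31 at IDH2, 5 and 11 of 21 at MDH2, 6 and 8 of 16 at D2HGDH, 5 and 3 of 8 at MDH1 and 3 and 3 of 7 at GLUL. All 6 tested neighbours of IDH1 were higher in PC3, while IDH1 itself was lower. DNA copy number was not analysed here.

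**Figure D4:**
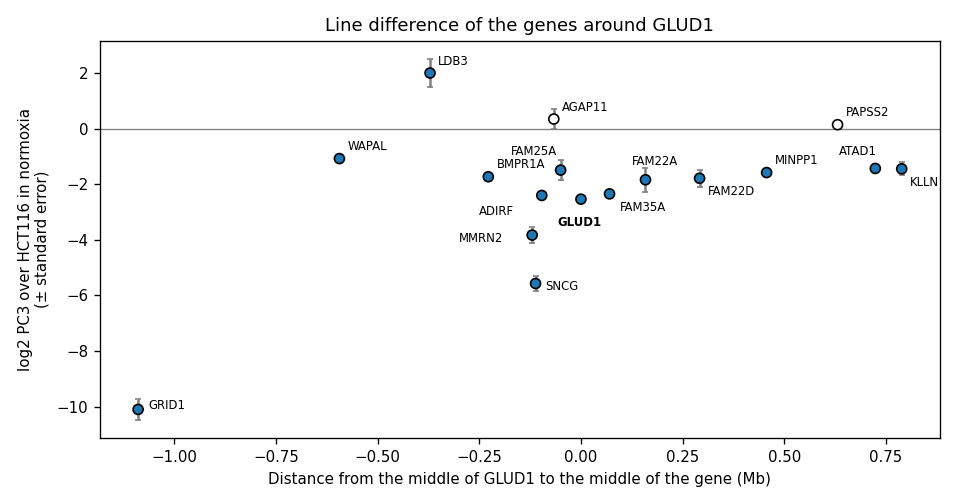
Line difference in normoxia (log2 PC3 over HCT116, vertical axis, whiskers 1 standard error) of GLUD1 and the 16 genes examined within 1 Mb of it, against the distance between gene midpoints in Mb. Filled circles have an adjusted p under 0.05, 13 neighbours below 0 and 1 above, and the fitted value of GRID1 has no fixed size because PC3 held almost none of its reads (0.00191 CPM).

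The remaining genes of the pathway form a list of 44, of glutamine uptake and glutaminase, transaminases, the TCA cycle, mitochondrial carriers and enzymes with 2-hydroxyglutarate side reactions. In hypoxic PC3 cells 3 of the 43 tested rose and 1 fell, with a median of -0.000491 (0.00233 over all genes), a share called below the 11.3% of all genes. LDHA, the lactate dehydrogenase subunit that also reduces 2-oxoglutarate to L-2-hydroxyglutarate, rose by 0.85 (SE 0.11, adjusted p 0.00232), from 3064 to 3486 CPM in normoxia to 4949 to 7093 in hypoxia. The glutamine transporter SLC38A2 rose by 0.56 and the alanine transaminase GPT2 by 0.46, and the mitochondrial glutamate carrier SLC25A22 fell by 0.30, with adjusted p of 0.00745, 0.017 and 0.0319. The GPT2 call was lost without normoxic replicate 2 (adjusted p 0.0608), hypoxic replicate 2 (0.053) or normoxic replicate 3 (0.0674). The SLC25A22 call was lost without any 1 of 5 libraries, normoxic replicates 2, 3 and 4 and hypoxic replicates 2 and 3, with adjusted p from 0.0564 to 0.108. With the replicate block 6 rose and 4 fell, where 28.5% of all genes were called. None of the 17 TCA cycle genes passed the test in PC3 without the block, and 1 rose and 1 fell with it.

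In hypoxic HCT116 cells 6 of the 42 tested rose and 5 fell, with a median of -0.015 (0.00178 over all genes), about the 25.9% of all genes called. LDHA rose by 1.66 (SE 0.07, adjusted p 4.22e-08), from 1620 to 1700 CPM to 4791 to 5493 CPM. The citrate carrier SLC25A1 rose by 0.54 (SE 0.08, adjusted p 0.000866) and OGDHL, the paralogue of OGDH, by 0.50 (SE 0.10, adjusted p 0.00365), the latter at only 6.94 to 11.8 CPM and lost in a single fit over all libraries (adjusted p 0.215). The aspartate-glutamate carrier SLC25A12 of the malate-aspartate shuttle fell by 0.67 (SE 0.07, adjusted p 5.22e-05) and PSAT1, the serine pathway transaminase that yields 2-oxoglutarate, fell by 0.38 (SE 0.09, adjusted p 0.0127), a call lost without hypoxic replicate 3 (adjusted p 0.0572). The other 6 called are named after their values were seen. SLC38A2, GPT2 and SDHA rose, by 0.30, 0.32 and 0.23. SLC25A13, IDH3A and AADAT fell, by 0.23, 0.35 and 0.32.

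By the interaction of line and oxygen 1 of the 44 was called. The hypoxic change of LDHA differed by -0.80 (SE 0.15, adjusted p 0.0125), a smaller rise in PC3. With replicate number as a block, also in HCT116 where the numbers did not pair, 3 were called higher and 2 lower, where 8.44% of all genes were called. They were LDHA (-0.81, adjusted p 0.00334) and, named after their values were seen, OGDHL (-0.79, adjusted p 0.0255), SLC25A12 (0.43, 0.0149), PSAT1 (0.41, 0.0277) and IDH3A (0.33, 0.0293). Between the lines in normoxia 15 of the 44 were higher and 23 lower in PC3, with a median of -0.17 against 0.03 over all genes, and 83.4% of all genes were called there. The glutaminase GLS2 was at 5.44 to 6.63 CPM in PC3 and 7 to 13 counts a library in HCT116, and the branched-chain transaminase BCAT1 at 2.56 to 3.70 CPM in PC3 and 0, 1 and 3 counts in HCT116. LDHB, AADAT and PSAT1 were lower in PC3 by log2 differences of -2.36, -2.08 and -2.05 (adjusted p 6.64e-08, 6.72e-09 and 6.42e-09).

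**Figure D5:**
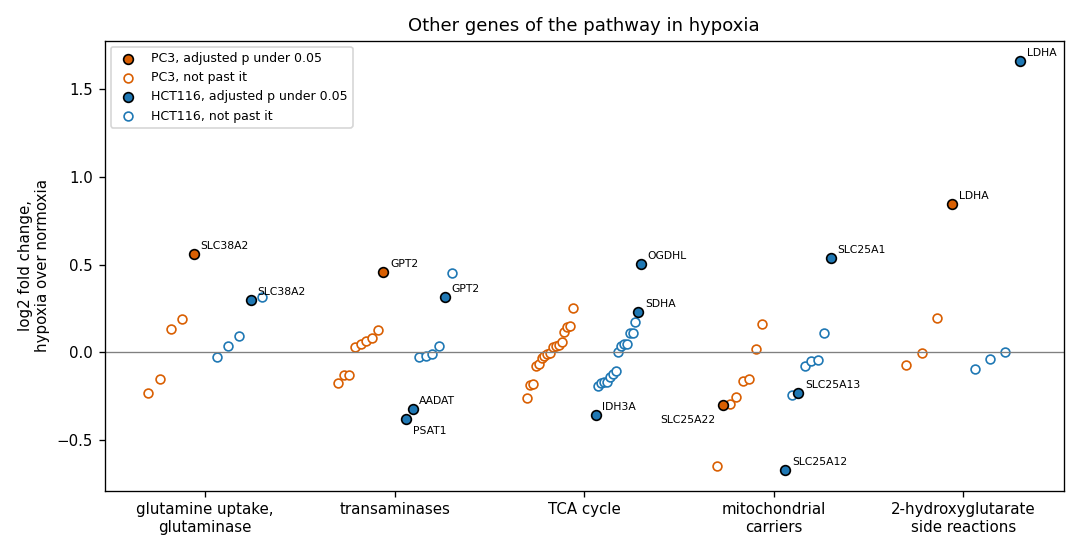
Log2 fold change of the other pathway genes in hypoxia over normoxia (vertical axis), by role, in PC3 (orange) and HCT116 (blue). Filled, named points have an adjusted p under 0.05 by edgeR without the replicate block, 4 genes in PC3 and 11 in HCT116, and open points do not.

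Over the 14 libraries the genes whose log2 CPM followed each member most closely, of 12638 genes ranked by Pearson's r, were AES and CNPY3 for GLUL (r = 0.985 and 0.982), CYB5B and IARS for GLUD1 (0.999 and 0.998), and TMEM135 and ACAT2 for IDH1 (0.958 and 0.942). They were PLEKHA2 and PGM1 for IDH2 (0.982 and 0.978), ZNF772 and ADRBK1 for D2HGDH (0.911 and 0.892), and NDUFA9 and RPS26 for MDH1 (0.998 and 0.997). For MDH2 they were ETFB and CAPNS1 (0.951 and 0.945) and for OGDH GPR153 and PLTP (0.998 and 0.998). These 14 points fall into clusters by line, so each r carries the difference between the lines and is a description only.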

How the data were processed

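The 14 tables of raw counts per gene were used as deposited. Per the study's methods and processing notes, spike-in reads were removed, the rest aligned to GRCh37 with HISAT2 (2.05), and genes counted with HTSeq (0.5.4p3). Spike-ins were not used here, so every level is relative to the library. Genes were tested with edgeR (4.0.16, R 4.3.3) by quasi-likelihood, after filterByExpr and TMM scaling, within each line, between lines in normoxia and for their interaction. P-values were two-sided and adjusted by Benjamini-Hochberg over all genes tested. DESeq2 (1.42.0), other scalings and filters, single libraries left out and a replicate block were alternatives. Same-numbered PC3 libraries deviated together (r = 0.831, 0.471, 0.314 and 0.408 for the 4 numbers in the titles), so the replicate block took those numbers as pairs. All other fits were unpaired. The study's methods state no pairing, and differently numbered PC3 libraries ran from r = -0.577 to 0.347. Transcript lengths came from the GENCODE annotation lifted to GRCh37, for 85.2% of genes holding 99.2% of counts. Statistics scripts were tested on simulated data. No 2 replicates agreed within sampling noise. All 8 members were named, with up to 5 pathway genes a comparison, those with the largest change among those called, and others only where said, and the 2 most similar genes a member (mean CPM of at least 1, prior count 1). The members and lists were chosen with earlier results of these data known. Some genes of the lists and of the neighbourhoods are not reported here.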

Additional observations from a re-analysis of the deposited data

Results flagged for a closer look

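In groups of 4 libraries, 4 of the 48 groups examined held a library far from the others, where chance gives about 2.4. MDH2 in hypoxic PC3 cells was highest in 1 library at 401.9 CPM, against 259.3 to 278.8 in the other 3, and SLC25A1 in the same group at 63.28 CPM, against 41.16 to 44.67. LDHB in normoxic PC3 cells was lowest in 1 library at 228.6 CPM, against 321.9 to 335.9, and SLC38A2 at 372.2 CPM, against 416.2 to 424.1. The hypoxic change differed between the lines by the interaction test for LDHA (-0.80, smaller in PC3) on the log2 scale.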

How the results depend on the processing

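Small differences that passed no test changed sign with single choices. In PC3, IDH1 was -0.0214 with upper-quartile and -0.0898 with total-count scaling, and MDH1 was -0.0168 with the latter. For the interaction, MDH2 was -0.00721 and OGDH -0.039 with upper-quartile scaling, and OGDH -0.0222 with total-count scaling. Leaving out single libraries gave -0.15 to 0.023 for GLUD1, -0.13 to 0.14 for IDH1, -0.0169 to 0.18 for MDH1 and -0.0116 to 0.23 for MDH2 in PC3, -0.0603 to 0.20 for IDH1 in HCT116, and for the interaction -0.0625 to 0.16 for GLUL, -0.23 to 0.10 for IDH1, -0.14 to 0.11 for MDH2 and -0.11 to 0.0755 for OGDH. Total-count scaling moved the median of all genes to -0.10 in PC3, -0.09 in HCT116 and 0.13 between lines.

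Genes called in PC3 numbered 2601 by DESeq2, 4074 with the replicate block, 2465 in a single fit over all libraries and 553 to 2085 with a library left out, against 1620. Members called numbered 1 with the block and 0 with each library left out. Pathway genes called numbered 7 by DESeq2, 10 with the block and 2 to 7 with a library left out, the 7 being without hypoxic replicate 4. In HCT116 the single fit called 1733 genes, 938 of them higher, with 1 member and 6 pathway genes, and total-count scaling called 1286 higher and 1 member, while leaving out libraries gave 2560 to 3339 genes, 1378 to 1853 of them higher, 1 to 3 members and 8 to 13 pathway genes. For the interaction DESeq2 called 974 genes and 3 of the pathway, the block 1307, 1 member and 5 of the pathway, median-of-ratios scaling and a minimum of 10 counts in every library 2 of the pathway each, and leaving out libraries 177 to 717 genes, 0 to 1 members and 1 to 3 of the pathway. The cause of these shifts was not tested.

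The HCT116 numbers did not pair its libraries (r = 0.0921, 0.388 and -0.0593 for numbers 1 to 3), and a replicate block there called the same 2 members, IDH2 and GLUL. It changed no other member's call in either line beside those given. The least counted member value was 987 counts (D2HGDH), and 3 to 4 libraries a group leave small changes unresolved.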
